A study of Homo sapiens with 6 samples.

Results

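ATF4 and amino acid stress genes are a set of 10 genes of the integrated stress response and of amino acid synthesis: ASNS, DDIT3, DDIT4, TRIB3, CHAC1, ATF3, PSAT1, PHGDH, ASS1 and SESN2. They were chosen by symbol, with earlier results of these data known. Of the 10, 9 had a probe set in the platform's annotation, all but CHAC1, out of 14812 named genes in all. Each of the 9 had 1 probe set. CHAC1, which breaks down glutathione, is not analysed here.

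The arrays measured RNA of LS180, an established line from a human colorectal adenocarcinoma, after transfection of an siRNA. The knockdown arrays were 1 with siRNA against CTNNB1, the gene of beta-catenin, 1 with siRNA against MYC and 1 with siRNA against MYU, a long non-coding RNA listed as VPS9D1-AS1. Each had 1 array of LS180 cells given control siRNA that its title assigns to it, which makes 6 arrays in 3 pairs. All groups share the line and the transfection, and the siRNA sequences and the time after transfection were not given in the sources used here. For the CTNNB1 array the treatment tag reads CTNNB2, against CTNNB1 in its title and source name. The titles of its control and of the MYC control bear one number, siControl_1, and that of the MYU control bears siControl_2. Whether the CTNNB1 and MYC controls are a single hybridisation is not known, so the differences of these 2 pairs may share a control. The MYU pair thus differs from these 2 pairs in its control number as well as in its siRNA.

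The deposited value of a gene in a knockdown array and that in its control mirror each other around 0, so a pair keeps only the difference, given below as the log2 difference of knockdown minus control. A difference of 1 is 2-fold and one of 0.585 is 1.5-fold. Levels are gone, so the identity of the line could not be checked from marker levels, and genes cannot be ranked by level. No difference could be checked against replicates, since there is 1 array a side, and "higher" and "lower" describe these arrays only. The targeted transcripts were checked first. MYC was at -1.18 in its own pair, -2.38 with CTNNB1 siRNA and 0.04 with MYU siRNA. VPS9D1-AS1 was at -0.50 in its own pair, -0.24 with MYC siRNA and -0.53 with CTNNB1 siRNA. It was thus 1.41-fold lower in its own pair, under 1.5-fold, and 1.44-fold lower with CTNNB1 siRNA. A knockdown of MYU does not stand out on these arrays. CTNNB1 had no named probe set, so its knockdown could not be checked.

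In the integrated stress response, kinases that sense amino acid shortage, misfolded protein in the endoplasmic reticulum, double-stranded RNA or lack of heme phosphorylate the translation factor eIF2. General translation then drops, while the mRNA of the transcription factor ATF4 is translated more. ATF4 raises genes that make, import and charge amino acids, together with regulators such as DDIT3 (CHOP), TRIB3 and SESN2. Its sites often have the form of a C/EBP-ATF response element. MYC is also known to drive serine synthesis genes in tumour cells.

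Promoter windows of 4 members are shown, since ASNS, PSAT1 and PHGDH were lower together in the CTNNB1 and MYC pairs and ASS1 was higher in all 3 pairs. The windows run from 250 bases before to 50 bases after a start site of the RefSeq annotation of GRCh38.p14, 5′ to 3′ on the strand of the gene. Capitals mark the C/EBP-ATF response element in ASNS (chr7:97872359-97872658, minus strand, 1 of its 2 annotated windows), CCAAT boxes in PSAT1 (chr9:78296875-78297174, plus strand) and PHGDH (chr1:119711684-119711983, plus strand), and an E-box in ASS1 (chr9:130444711-130445010, plus strand, 1 of its 2 windows).
ASNS: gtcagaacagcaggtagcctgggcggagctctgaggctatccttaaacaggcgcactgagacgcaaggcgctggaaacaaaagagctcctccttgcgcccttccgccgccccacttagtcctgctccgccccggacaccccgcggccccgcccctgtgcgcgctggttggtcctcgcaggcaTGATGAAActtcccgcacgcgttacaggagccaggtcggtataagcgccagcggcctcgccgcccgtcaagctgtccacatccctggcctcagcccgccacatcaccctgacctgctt
PSAT1: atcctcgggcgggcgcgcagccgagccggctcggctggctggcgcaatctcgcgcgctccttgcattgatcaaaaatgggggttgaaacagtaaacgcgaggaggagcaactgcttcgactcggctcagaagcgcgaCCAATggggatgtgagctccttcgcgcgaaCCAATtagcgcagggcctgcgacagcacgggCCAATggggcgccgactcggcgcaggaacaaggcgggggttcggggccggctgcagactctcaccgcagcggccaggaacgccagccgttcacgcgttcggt
PHGDH: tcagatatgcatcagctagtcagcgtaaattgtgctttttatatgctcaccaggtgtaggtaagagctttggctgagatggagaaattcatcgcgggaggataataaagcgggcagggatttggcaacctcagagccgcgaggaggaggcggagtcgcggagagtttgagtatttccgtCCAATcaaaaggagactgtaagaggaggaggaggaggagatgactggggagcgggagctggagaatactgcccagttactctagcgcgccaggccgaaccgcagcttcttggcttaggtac
ASS1: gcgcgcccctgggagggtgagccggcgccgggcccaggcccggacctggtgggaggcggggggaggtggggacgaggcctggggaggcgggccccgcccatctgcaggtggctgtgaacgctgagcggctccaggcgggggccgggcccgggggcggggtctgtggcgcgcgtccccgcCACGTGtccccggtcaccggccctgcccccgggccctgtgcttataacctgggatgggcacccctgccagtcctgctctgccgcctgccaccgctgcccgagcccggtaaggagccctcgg

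All 10 genes had at least 1 such window, 16 windows in all. These were searched on both strands for 4 motifs, and beside each is given the share of all 27305 genes with a window that had a match in at least 1 of their windows. The C/EBP-ATF response element, searched as TGATGNAA, occurred in the windows of ASNS, ATF3 and CHAC1 and in 4.46% of all genes. In ASNS it starts 68 bases before the start site, in ATF3 191 bases and in CHAC1 209 bases before it. The E-box CACGTG, the sequence MYC binds with its partner MAX, occurred in ASS1 of the 10, 71 bases before the start site, and in 8.77% of all genes. The core of the TCF motif, CTTTGAT, the sequence through which beta-catenin's DNA-binding partners act, occurred in 0 of the 10 and in 3.18% of all genes. CCAAT occurred in 7 of the 10, with 3 matches in PSAT1 and 1 in PHGDH, and in 39.7% of all genes. The others with a match were CHAC1, ATF3, DDIT3, DDIT4 and SESN2. Of these, all but the unmeasured CHAC1 were above 0 in the CTNNB1 pair. ASNS, which was below 0 there, had no match. No match overlapped a match of another motif. A match describes letters in a window and does not show a factor bound there.

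The amino acid enzymes lay on opposite sides of 0 in the CTNNB1 pair, with ASS1 above and the other 3 below. ASS1, which makes argininosuccinate in the route to arginine, was deposited at 1.04 in the CTNNB1 siRNA array and at -1.04 in its control, a difference of 2.07 or 4.20-fold. Its values were 0.16 in the MYC siRNA array and -0.16 in its control, and 0.51 in the MYU siRNA array and -0.51 in its control. The differences were thus 2.07, 0.33 and 1.02 for the CTNNB1, MYC and MYU knockdowns, so that ASS1 was the only measured member at least 2-fold higher in any pair. Among all 14812 genes, 53 had a higher value than ASS1 after CTNNB1 siRNA, 1121 after MYC siRNA and 8 after MYU siRNA. In RNA of whole cultures, a larger share of cells with the transcript and more of it per cell cannot be told apart. The gene table names 14 pseudogenes of ASS1, 5 of ASNS and 4 of PSAT1, and whether the probe sets also bind their transcripts was not tested.

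PHGDH, PSAT1 and PSPH catalyse the consecutive steps from the glycolytic intermediate 3-phosphoglycerate to serine. PSAT1, the aminotransferase of the route, was deposited at -0.50 in the CTNNB1 siRNA array and 0.50 in its control, and at -0.47 in the MYC siRNA array and 0.47 in its control. These are differences of -1.00 and -0.93, or 1.99-fold and 1.91-fold lower, just under the 2-fold threshold. Its difference in the MYU pair was -0.02. Of all genes, 618 lay below PSAT1 after CTNNB1 siRNA and 95 after MYC siRNA. PHGDH, the dehydrogenase of the first step, had differences of -0.77, -0.48 and 0.16 for the CTNNB1, MYC and MYU knockdowns. PSPH, the phosphatase of the last step and no member of the set, had differences of -0.89, -0.83 and -0.12. All 3 enzymes of the route were therefore below 0 in the CTNNB1 and MYC pairs, between -1.00 and -0.48, and within 0.16 of 0 in the MYU pair. The CTNNB1 and MYC pairs may share a control, so their values need not be independent.

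ASNS, which makes asparagine from aspartate and glutamine, was deposited at -0.25 in the CTNNB1 siRNA array and 0.25 in its control, at -0.24 in the MYC siRNA array and 0.24 in its control, and at 0.07 in the MYU siRNA array and -0.07 in its control. The differences of -0.50, -0.49 and 0.14 had the same signs as those of PHGDH and were smaller than 1.5-fold. The possibly shared control of the CTNNB1 and MYC pairs limits this likeness too. After CTNNB1 siRNA 19.4% of all genes differed more than ASNS in size, and after MYC siRNA 9.16% did.

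**Figure D1:**
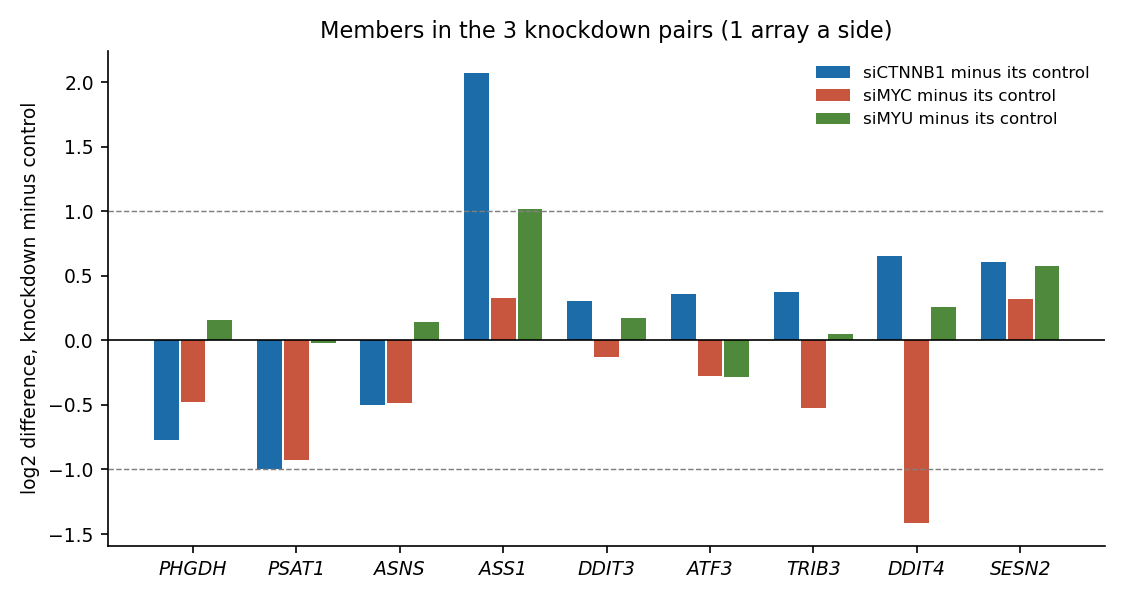
Log2 difference, knockdown minus control, of the 9 measured genes (enzymes left, regulators right) for the CTNNB1, MYC and MYU knockdowns, each from 1 array a side. Dashed lines mark 2-fold. ASS1 is above 0 in all 3 pairs, PHGDH, PSAT1 and ASNS are below 0 in the CTNNB1 and MYC pairs, and DDIT4 stands at 0.65 and -1.42 in these pairs.

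Among the stress regulators the MYC pair held the largest value. DDIT4 (REDD1), which restrains mTORC1, the kinase complex that drives growth when amino acids are plentiful, was deposited at -0.71 in the MYC siRNA array and 0.71 in its control, a difference of -1.42 or 2.67-fold lower. Only 10 of the 14812 genes had a lower value in that pair. In the CTNNB1 pair DDIT4 was deposited at 0.33 in the knockdown and -0.33 in the control, a difference of 0.65. In the MYU pair the values were 0.13 in the knockdown and -0.13 in the control, a difference of 0.26. DDIT4 was thus lower with MYC siRNA and higher with CTNNB1 siRNA, and MYC itself was lower in both pairs.

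SESN2, a leucine sensor that holds back mTORC1 when leucine is short, was above 0 in all pairs, with deposited values of 0.30 with CTNNB1 siRNA and -0.30 in its control, 0.16 with MYC siRNA and -0.16 in its control, and 0.29 with MYU siRNA and -0.29 in its control. The differences were 0.61, 0.32 and 0.58. In the MYU pair, where differences were narrow, only 109 genes lay above SESN2. ASS1 and SESN2 were the 2 members above 0 in all 3 pairs.

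TRIB3, a pseudokinase induced by ATF4 and DDIT3, had differences of 0.37, -0.53 and 0.05 for the CTNNB1, MYC and MYU knockdowns. DDIT3, a transcription factor linked to cell death under lasting stress, had differences of 0.31, -0.13 and 0.18. ATF3, a stress-induced transcription factor, had differences of 0.36, -0.28 and -0.29. None of these 9 values reached 1.5-fold. The 5 regulators were above 0 in 5 of 5 cases in the CTNNB1 pair, between 0.31 and 0.65, and below 0 in 4 of 5 cases in the MYC pair, where SESN2 was the exception. The median over all genes was 0 in both pairs.

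Counted over the 9 measured genes, the CTNNB1 pair had 1 gene at least 2-fold higher, ASS1, and 0 at least 2-fold lower. Over all named genes 2.80% were 2-fold higher and 4.14% 2-fold lower in this pair. At 1.5-fold, 3 of 9 were higher (ASS1, DDIT4 and SESN2) and 2 of 9 lower (PSAT1 and PHGDH), against 6.44% and 9.80% of all genes. The MYC pair had 0 of 9 genes 2-fold higher and 1 of 9 lower, DDIT4, against 0.412% and 0.446% of all genes. At 1.5-fold, 0 were higher and 2 lower (DDIT4 and PSAT1), against 2.15% and 3.63%. The MYU pair had 1 of 9 genes 2-fold higher, ASS1, and 0 lower, against 0.0608% and 0.0945% of all genes. At 1.5-fold its counts were the same, against 0.668% and 1.21%. The set was chosen with earlier results of these data known, so a count above these shares is no independent finding about it.

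The median difference of the 9 genes was 0.36 for CTNNB1, -0.48 for MYC and 0.16 for MYU siRNA, against a median of 0 over all genes in each pair. The genes spread from -1.00 to 2.07 after CTNNB1 siRNA, from -1.42 to 0.33 after MYC siRNA and from -0.29 to 1.02 after MYU siRNA. The set was therefore split in the CTNNB1 pair, with 6 genes above and 3 below 0, mostly lower in the MYC pair, with 2 above and 7 below, and mostly above 0 in the MYU pair, with 7 above and 2 below. As a measure of noise, the 651 genes with several probe sets had a median standard deviation between these of 0.10, 0.08 and 0.06 for the CTNNB1, MYC and MYU knockdowns. The 95th percentile of that standard deviation was 0.58, 0.40 and 0.35 in the same order, and 15 of the 27 differences of the set were smaller than it. This spread covers probes on the same arrays and leaves out the spread between cultures.

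**Figure D2:**
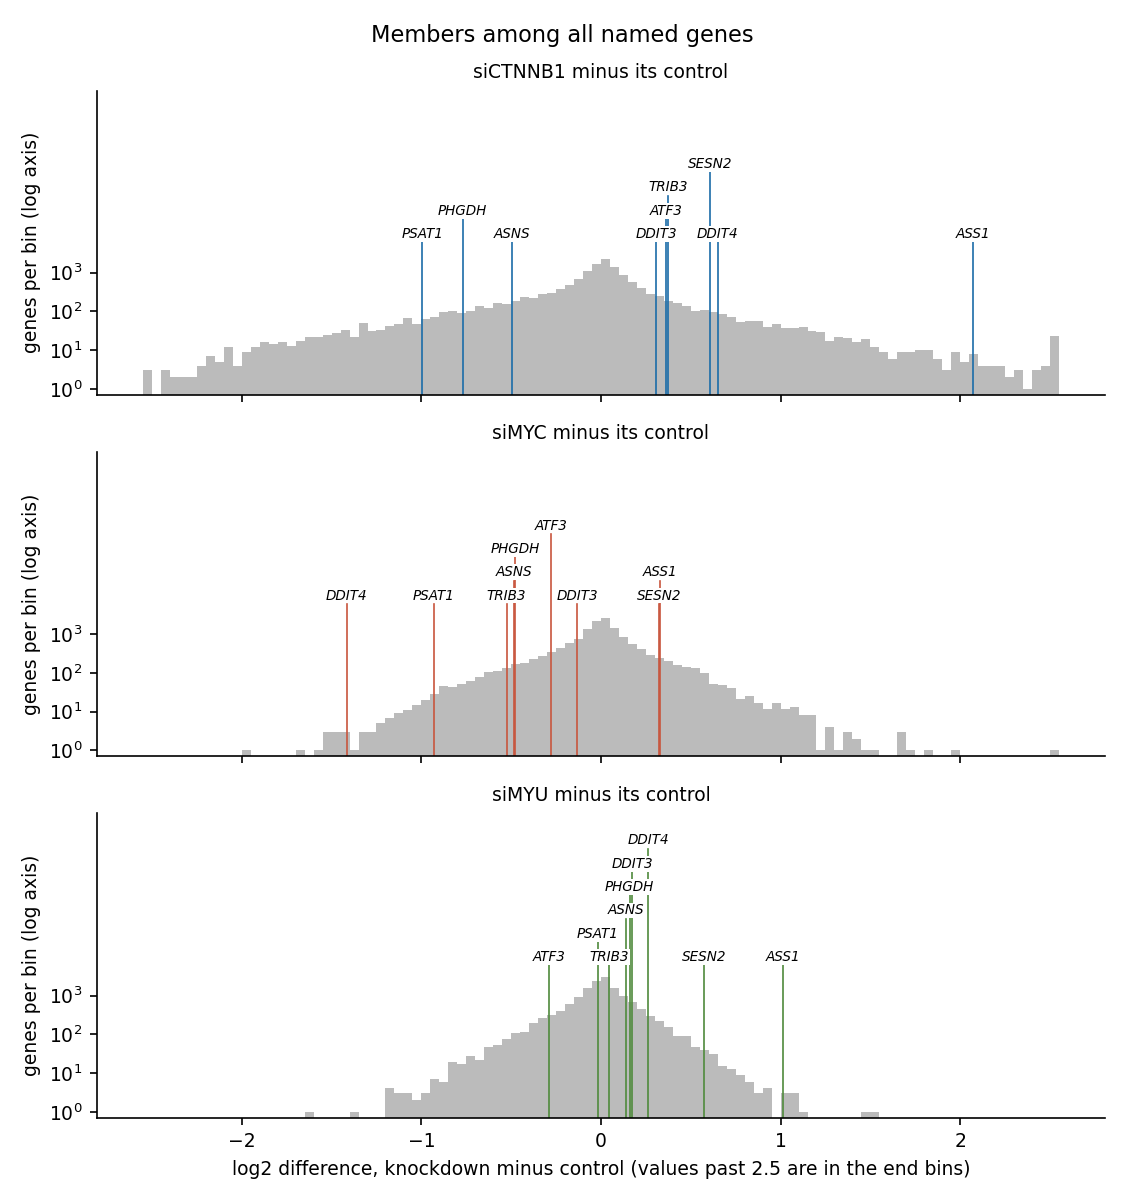
Number of named genes (log axis, bins of log2 difference) for the CTNNB1, MYC and MYU knockdowns, 1 array a side, with the 9 measured genes marked by lines whose heights carry no value. The spread of all genes narrows in the order of the panels, and ASS1 at 2.07 in the first panel, DDIT4 at -1.42 in the second and ASS1 at 1.02 in the third lie in the thin ends of the distributions.

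ATF4 and the sensors above it were followed in the same pairs. ATF4 mRNA had differences of -0.06, -0.30 and 0.12 for the CTNNB1, MYC and MYU knockdowns. Its activity is set mainly by translation, which these arrays did not measure. Of the 22 listed genes of the kinases, eIF2, its exchange factor and ATF4 partners, 9 were measured, and 0 of these were 2-fold apart in any pair. Of all genes 6.94%, 0.857% and 0.155% were 2-fold apart in the CTNNB1, MYC and MYU pairs. EIF2AK3 (PERK), the kinase of the endoplasmic reticulum, stood at 0.88 after CTNNB1 siRNA and 0.41 after MYC siRNA, and EIF2AK1 (HRI), which senses heme, at 0.59 in the MYU pair and -0.43 in the CTNNB1 pair. IMPACT, an inhibitor of the amino acid sensing branch, had values of -0.94, -0.20 and -0.42, and GCN1, an activator of that branch, was at -0.36 in the MYC pair. EIF2AK2 (PKR), the sensor of double-stranded RNA, stood at -0.22 in the MYU pair. The medians were -0.31, -0.07 and 0.03 for the CTNNB1, MYC and MYU knockdowns.

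Of 24 other listed ATF4 targets 15 were measured, with medians of 0.16, 0.01 and 0.01. Only GDF15, a secreted stress factor, was 2-fold apart, 1 of 15 genes, at 1.52 after MYU siRNA. CTNNB1 and MYC siRNA gave 0.27 and 0.45. In the MYU pair 0.0608% of all genes were 2-fold higher. GDF15 is among 661 genes whose deposited values carry a coarser rounding step, which may mark high levels. Of these 661 genes 0.303% were 2-fold higher in the MYU pair. EIF4EBP1, a translation repressor, was lower in each pair, at -0.81, -0.60 and -0.36. The growth factor gene VEGFA stood at -0.86 and SQSTM1, an autophagy receptor, at 0.58 in the MYC pair. TXNIP (0.88), an inhibitor of thioredoxin, and UPP1 (0.74), the uridine phosphorylase gene, led in the CTNNB1 pair, and ERO1A, an oxidase of the endoplasmic reticulum, stood at -0.41 in the MYU pair.

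Of 29 further enzymes of amino acid metabolism 17 were measured. In the CTNNB1 pair 1 was 2-fold higher, CTH at 1.06, which makes cysteine from cystathionine, and 1 was 2-fold lower, MTHFD1L at -1.78, a mitochondrial folate enzyme. At 1.5-fold 3 were higher and 3 lower, with a median of -0.03. Of all genes in this pair 2.80% were higher and 4.14% lower at 2-fold, and 6.44% and 9.80% at 1.5-fold. The 2-fold counts, 1 of 17 in each direction, lay near these shares. The 1.5-fold counts, 3 of 17 in each direction, lay above them. In the MYC pair 0 were 2-fold apart, against 0.857% of all genes. At 1.5-fold 2 of 17 were lower, MTHFD1L (-0.86) and PSPH, against 3.63% of all genes. In the MYU pair CTH stood at -0.79, OAT, an ornithine aminotransferase, at 0.46 and PYCR1, which makes proline, at 0.40. Beside ASS1 in the urea cycle, ASL, which splits argininosuccinate to arginine, had values of 0.60, 0.03 and 0.35, and OTC, the step before ASS1, had values of -0.08, -0.04 and 0.06. ASL and OTC were named after their values were seen. Of 23 listed amino acid carriers of the plasma membrane 0 had a named probe set, and they are not analysed here.

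Of 20 cytosolic tRNA synthetase genes, which charge tRNAs with amino acids, 17 were measured. With CTNNB1 siRNA 14 were below 0 with a median of -0.36, against a median of 0 over all genes. LARS1 (-1.48) and IARS1 (-1.13), the leucine and isoleucine enzymes, were 2-fold lower, 2 of 17 against 4.14% of all genes. Of the 17 genes 9, LARS1, IARS1, KARS1 and NARS1 among them, belong to 661 genes whose deposited values carry a coarser rounding step, which may mark high levels. Of these 661 genes 16.5% were 2-fold lower in the CTNNB1 pair, and of the 9 synthetases 2 were, which is near that share. At 1.5-fold the 661 genes also leaned low in this pair, with 31.5% lower and 15.0% higher, and 4 of the 9 synthetases were lower. With MYC siRNA 15 were below 0 with a median of -0.23, against a median of 0 over all genes. LARS1 (-0.81), IARS1 (-0.69) and NARS1 (-0.62), the asparagine enzyme, were 1.5-fold lower, 3 of 17 against 3.63% of all genes. All 3 are among the 9 with the coarser step, 33.3% of these 9. Of the 661 genes 13.0% were 1.5-fold lower and 4.24% higher in the MYC pair. MYU siRNA left 0 of the 17 synthetases 1.5-fold apart, with a median of 0.08. Of all genes only 0.668% were 1.5-fold higher and 1.21% lower in the MYU pair. SARS1, the serine enzyme, stood at 0.29 in this pair, AARS1, the alanine enzyme, at -0.27 and GARS1, the glycine enzyme, at 0.24. KARS1, the lysine enzyme, stood at -0.85 in the CTNNB1 pair.

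The amino acid sensing machinery of mTORC1 had 20 of 29 listed genes measured, with medians of 0.10, 0.05 and 0.04 for the CTNNB1, MYC and MYU knockdowns. SEH1L, a subunit shared by the GATOR complex and the nuclear pore, was the only one 2-fold apart, at -1.79 in the CTNNB1 pair, and stood at -0.61 in the MYC pair. That 1 of 20 lies near the 4.14% of all genes 2-fold lower in the CTNNB1 pair, and SEH1L is among the 661 genes with the coarser step. NPRL3, a GATOR subunit, had values of -0.82 and -0.60 in these pairs, and RRAGC, a Rag GTPase, of 0.63 and 0.61. SESN1, a relative of SESN2, had values of 0.01, 0.73 and 0.85, against 0.61, 0.32 and 0.58 for SESN2. After MYU siRNA TSC1, an mTORC1 inhibitor, stood at -0.63 and WDR24, another GATOR subunit, at 0.41.

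The ATF6 and XBP1 arm of the unfolded protein response, the other answer to misfolded protein, had 11 of 21 genes measured. Of these 11 genes 0 were 2-fold apart in any pair, against 6.94%, 0.857% and 0.155% of all genes in the CTNNB1, MYC and MYU pairs. The medians were 0.13, -0.04 and -0.19 for the CTNNB1, MYC and MYU knockdowns. With CTNNB1 siRNA SEL1L, which serves the removal of misfolded protein, stood at 0.75 and was the only one at 1.5-fold, with CALR, a chaperone, at 0.40 and CRELD2 at 0.37. With MYC siRNA SDF2L1 stood at -0.49, MANF at -0.31 and SEC61B at 0.24. With MYU siRNA the sensors ATF6 (-0.35) and ERN1 (-0.30) and SEL1L (-0.31) were furthest from 0.

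**Figure D3:**
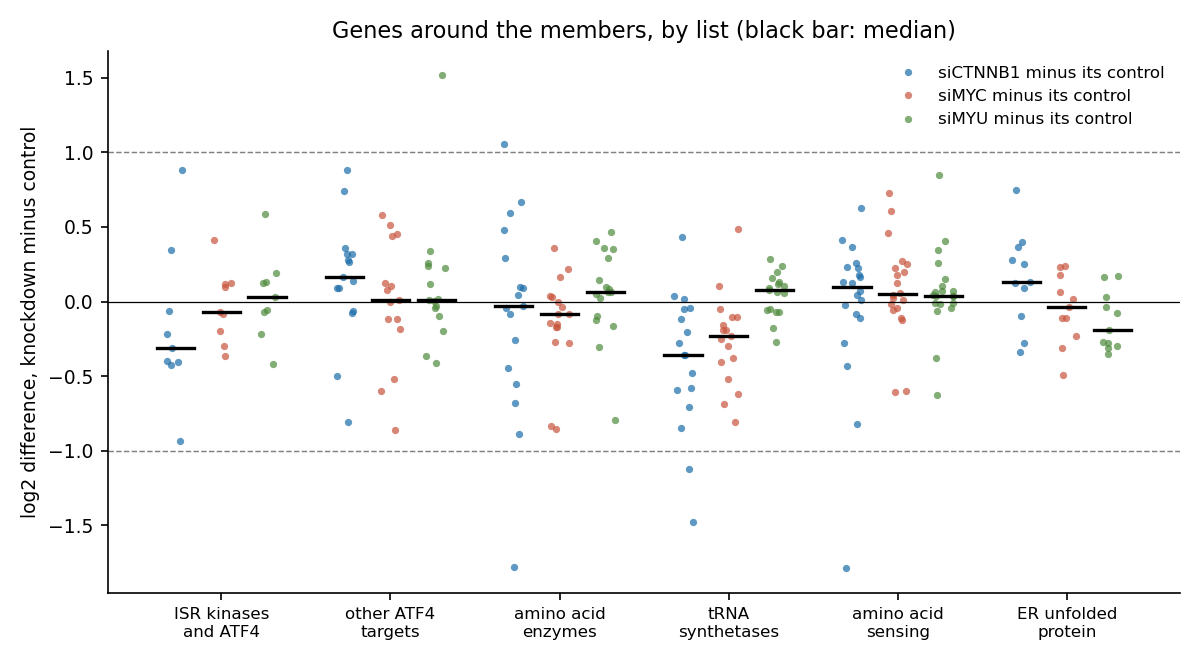
Log2 difference, knockdown minus control, of each measured gene in 6 lists around the set, for the CTNNB1, MYC and MYU knockdowns (1 array a side). Black bars are medians and dashed lines mark 2-fold. The tRNA synthetases have a median of -0.36 after CTNNB1 siRNA, -0.23 after MYC siRNA and 0.08 after MYU siRNA, and most points of the other lists lie within 2-fold.

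ASS1 had the largest difference of the set, and the genes most like it were taken as the 5 with the smallest Euclidean distance over the 3 pair differences. They were ZG16B at a distance of 0.52, TM4SF1 at 0.61, FXYD3 at 0.63, DGAT1 at 0.67 and ALOX5 at 0.69. After CTNNB1 siRNA these 5 lay between 1.72 and 2.03, close to ASS1 at 2.07. After MYU siRNA they lay between 0.36 and 0.58, below ASS1 at 1.02. All 5 therefore differed from ASS1 by more than 0.4 in the MYU pair. Only 8 genes in all lay above ASS1 in that pair, so its nearest genes were likely to lie lower there.

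Markers of cell types were looked at as differences only. Of 9 measured colon epithelium markers, 4 were 2-fold higher in the CTNNB1 pair, against 2.80% of all genes: KRT20 at 4.39, CEACAM5 at 1.11, VIL1 at 1.06 and GPA33 at 1.02. The other 5 lay between -0.42 (CDX2) and 0.62 (EPCAM), and the median of the 9 was 0.62, against 0.09 for MYC and 0.05 for MYU siRNA. After MYU siRNA GPA33 stood at -0.80 and KRT20 at -0.73. Of 3 measured fibroblast markers LUM stood at 2.78 in the CTNNB1 pair, while DCN was at 0.01 and THY1 at -0.04. Of 2 measured leukocyte markers CD68, a lysosomal protein gene, stood at 2.65 and CD14 at -0.03. Their part in the differences of ASS1 and the other genes of this pair was not tested.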

How the data were processed

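Total RNA of 6 LS180 samples was labelled with biotin and hybridised to Affymetrix arrays, per the labels' protocols. The deposited values are log2 expression centred by the authors within each pair: the values of a probe set in a knockdown and its control sum to 0 within 1e-06, as read from the values. No source states the log base, which was taken as 2. Background correction and normalization were not given in the sources used here.

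Of 44629 probe sets, 15835 carry 1 gene symbol in the platform annotation, 0 carry several, and 28794 are unnamed here. All 15835 matched the gene table of GRCh38.p14 by identifier and gave 14812 genes, each the mean of its probe sets. Knockdown minus its control was computed per pair. No test was run, because each group has 1 array, and genes were counted at 2-fold and 1.5-fold. Alternatives were centring on array medians, other choices of probe set, removal of a length trend (running median over 501 genes, lengths for all 9 members), and other backgrounds. The members and lists were chosen with earlier results of these data known. Named are all members, the targeted transcripts, the 3 genes furthest from 0 per list and pair, and the 5 genes most like the leading member. The calculations were tested on simulated data. Python 3.11.15, numpy 2.4.6, pandas 2.3.3 and matplotlib 3.10.9 were used.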

Additional observations from a re-analysis of the deposited data

Results flagged for a closer look

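DDIT4 stood apart because the CTNNB1 and MYC pairs had opposite signs, both by at least 1.5-fold: 0.65 with CTNNB1 siRNA and -1.42 with MYC siRNA, 2.07 apart on the log2 scale. CTH did the same between the CTNNB1 pair (1.06) and the MYU pair (-0.79), 1.85 apart. With 1 array a side, neither difference between pairs was tested.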

How the results depend on the processing

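No paired test was possible because each group has 1 array. The control numbers in the titles, siControl_1 and siControl_2, do not give replicates of a group. Each value is itself a difference within 1 pair and comes from no test. Leaving out arrays in turn was not possible with 1 a group, and their number limits the precision. The 27 differences of the measured genes shifted by at most 0.01 when arrays were centred on their medians and by at most 0.03 when the length trend was removed, with 0 changes of sign. The choice of probe set could not move them, since each gene had 1. Centring put PSAT1 past 2-fold in the CTNNB1 pair, so that 1 gene of the set was lower there in place of 0. Taking the probe set with the largest difference made 1 other ATF4 target 2-fold higher in the CTNNB1 pair, in place of 0.

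At 1.5-fold in place of 2-fold, the CTNNB1 pair had 3 genes of the set higher and 2 lower, with 1 and 1 for the kinases and ATF4, 2 and 1 for other ATF4 targets, 3 and 3 for further enzymes, 1 and 2 for amino acid sensing, 1 higher for the unfolded protein response and 5 lower for tRNA synthetases. The MYC pair had 2 genes of the set lower, 2 other targets, 2 enzymes and 3 synthetases lower, and 2 sensing genes in each direction. The MYU pair had 1 kinase gene higher, 1 enzyme lower and 1 sensing gene in each direction. These counts move because the threshold is lower. Of all genes, 6.44% were 1.5-fold higher and 9.80% lower in the CTNNB1 pair. The shares were 2.15% and 3.63% in the MYC pair, and 0.668% and 1.21% in the MYU pair.

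The share of the background 2-fold apart was 6.94%, 0.857% and 0.155% over named genes in the CTNNB1, MYC and MYU pairs. In the CTNNB1 pair it was 3.93% over all probe sets. Over 661 genes with a coarser rounding step, which may mark high levels, it was 24.7%, 2.72% and 0.454%, and 0 of the 9 genes are among these 661. Of the neighbouring lists, ATF4, EIF2AK1, EIF2AK2, GDF15, SEH1L, ATF6, CALR, CANX and SEC61B are among them. So are 9 tRNA synthetases, LARS1, IARS1, KARS1 and NARS1 included. The higher share may be the closer background for these genes, but what the step marks was not tested.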
